A study of Mus musculus with 14 samples.

Results

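The m6A readers and erasers studied here are 10 mouse genes, chosen by symbol from the total-count and conversion-count tables: the YTH-domain readers Ythdf1, Ythdf2, Ythdf3, Ythdc1 and Ythdc2, the IGF2BP readers Igf2bp1, Igf2bp2 and Igf2bp3, and the demethylases Fto and Alkbh5. They are 10 of 36335 named genes. They were taken by name and not by a threshold on any value, but earlier results of these data were known when they were chosen. Their RNA was measured by SLAM-seq in E14 embryonic stem cells that carried a Mettl3 knockout (Mettl3-KO) or were wild type (WT). All cells, WT included, had been held for 2 weeks in a paused state with 200 nM INK128, an mTOR inhibitor, in medium with serum and LIF on gelatin. In SLAM-seq, cells take up the uridine analogue S4U, and iodoacetamide then makes the labelled positions read as T-to-C conversions. Here 100 µM S4U was given for 12 h and then removed, and cells were collected 0, 1, 3 or 8 h into this chase.

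There were 8 Mettl3-KO libraries, 2 at each time, and 6 WT libraries, with 2 each for 1 h and 8 h and a single one for 0 h and for 3 h. The libraries were made from 3′ ends, so a count stands for a transcript end and is not divided by gene length. The labels do not give the number of knockout clones or say whether replicates were separate cultures, and p-values can therefore reflect no more than the spread among these libraries, which may be technical. The source names of the Mettl3-KO 8 h libraries differ from those of the others, although their cell line label is E14 as well. The sources used here do not say if reads or single converted positions make up the conversion counts.

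N6-methyladenosine (m6A) is placed on mRNA in the nucleus by a complex whose catalytic subunit is METTL3, and it is recognised by reader proteins and removed by erasers. The cytoplasmic YTHDF proteins act mainly on the decay and translation of methylated mRNA, the nuclear YTHDC1 on its processing and export, and the IGF2BP proteins bind mRNA and are reported to stabilise methylated targets. In embryonic stem cells m6A is known for limiting the lifetime of mRNAs, including those of pluripotency factors.

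Total counts per library were between 6108100 and 26654200 in 12 libraries, called the deep libraries here. The other 2, Mettl3-KO 3 h replicate 2 with 602297 counts and WT 1 h replicate 2 with 49154 counts, stood apart in depth and in labelled share. Conversion counts per 100 total counts were 6.90 in this Mettl3-KO library, against 18.5 in Mettl3-KO 3 h replicate 1, and 8.43 in this WT library, against 30.8 in WT 1 h replicate 1. Results are therefore given with and without both. Total RNA levels are given in counts-per-million units (CPM). Mettl3 itself had between 1.21 and 5.59 CPM (median 1.66) in the Mettl3-KO libraries, against 20.3 to 74.9 CPM (median 35.9) in the WT libraries. The ranges did not overlap, and the log2 change was -4.63 (SE 0.29, adjusted p = 3.89e-07). Summed embryonic stem cell markers, all 7 of which passed the count filter, were at 2023 to 3072 CPM in the deep Mettl3-KO libraries, against 2775 to 3523 CPM in the deep WT libraries, and 0 of the 7 were called higher in Mettl3-KO and 1 lower (median log2 -0.15).

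In total RNA, 5 of the 10 genes changed with the genotype. Ythdf2, Ythdc1 and Ythdc2 were higher in Mettl3-KO cells, Igf2bp3 and Fto were lower, and Ythdf1, Ythdf3, Igf2bp1, Igf2bp2 and Alkbh5 did not pass the test. All 10 had passed the count filter. The test was edgeR's quasi-likelihood test over 14 libraries with chase time as a factor, and a change was called at an adjusted p under 0.05 over 14641 genes. The 3 of 10 that were higher and the 2 of 10 that were lower stood beside 12.1% higher and 9.99% lower among all genes tested. The median log2 change was 0.31 over the 10 genes and 0.046 over all genes tested. Without the shallow libraries, Ythdf3 joined the genes that were higher and Igf2bp2 those that were lower, while 21.9% of 14579 genes were higher and 19.3% were lower.

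**Figure D1:**
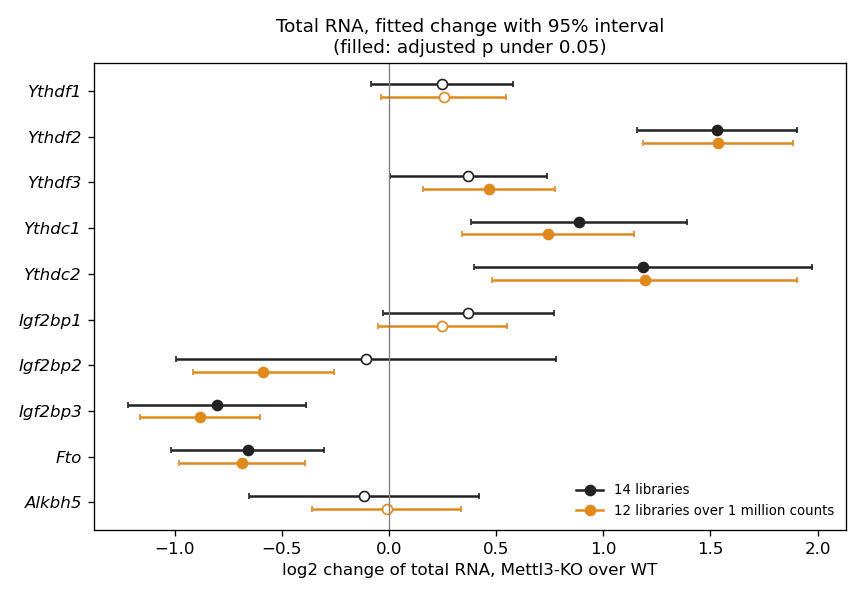
The log2 change of total RNA, Mettl3-KO over WT, for each of the 10 genes (points) with the 95% interval of the fit (bars), in all 14 libraries (black) and in the 12 deep ones (orange). Filled points have an adjusted p under 0.05. The bars use a normal quantile, so they can leave out 0 where the test does not pass, as for Ythdf3 in all 14 libraries. Ythdf2 stands at 1.53 in both fits, while Igf2bp2 moves from -0.11 to -0.59 when the shallow libraries are left out.

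Markers of 4 of 5 other lineages held calls in total RNA, to be read beside the 12.1% of all genes that were higher and the 9.99% that were lower. Neural markers summed to 453 to 737 CPM in the deep Mettl3-KO libraries, against 74.9 to 97.5 CPM in the deep WT libraries, and 2 of the 5 were higher and 1 was lower. Endoderm markers summed to 14.9 to 33.5 CPM in Mettl3-KO and 103 to 142 CPM in WT, with 4 of 6 tested lower. Trophoblast markers summed to 86.4 to 108 CPM in Mettl3-KO and 41.0 to 55.1 CPM in WT, with 1 of 3 tested higher, a median log2 change of -0.27 over the 3, and Elf5 at 0 in the deep libraries. Mesoderm markers summed to 9.29 to 14.9 CPM in Mettl3-KO and 10.2 to 17.0 CPM in WT, with 1 of 4 tested higher and 1 lower. Fibroblast markers summed to 3.79 to 8.79 CPM in Mettl3-KO and 8.73 to 19.8 CPM in WT, with 0 of 3 tested called and Postn at 0. The part of these genes in the results for readers and erasers was not tested, and in bulk RNA fewer cells of a type and less RNA per cell cannot be told apart.

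Ythdf2 (chr4:132184916-132212256 on GRCm38.p6, the mm10 assembly) was the gene with the largest change among the 10. Its protein recruits the CCR4-NOT deadenylase to methylated mRNA and so speeds its decay. At 0 h it had 665 and 428 CPM in the Mettl3-KO libraries, against 197 CPM in the WT library. At 1 h it had 437 and 649 CPM in Mettl3-KO, against 148 and 162 CPM in WT. At 3 h it had 417 and 400 CPM in Mettl3-KO and 132 CPM in WT, and at 8 h 497 and 447 CPM in Mettl3-KO and 162 and 207 CPM in WT. The lowest Mettl3-KO library was above the highest WT library, shallow libraries included. Of all genes tested, 13.1% were above WT in every deep Mettl3-KO library. The mean was 493 ± 105 CPM in Mettl3-KO (SD, n = 8) and 168 ± 28.6 CPM in WT (SD, n = 6). The fitted fold was 2.89 (log2 1.53, SE 0.19, adjusted p = 0.000101), and the log2 change stayed between 1.43 and 1.60 in all 19 alternatives, each with a call.

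The other YTHDF genes were closer between genotypes. Ythdf1 (chr2:180904377-180920936), whose protein is known for promoting translation of methylated mRNA, had 263 to 450 CPM (median 333) in Mettl3-KO and 244 to 348 CPM (median 299) in WT. The ranges overlapped, and the log2 change of 0.25 (SE 0.17, 95% interval -0.08 to 0.58, adjusted p = 0.328) did not pass the test. Ythdf3 (chr3:16183148-16217037), a partner of both other YTHDF proteins, had 94.8 to 166 CPM (median 130.0) in Mettl3-KO and 81.0 to 122 CPM (median 104) in WT. The ranges overlapped, also in the deep libraries alone, at 94.8 to 166 CPM in Mettl3-KO and 81.0 to 112 CPM in WT. Its log2 change was 0.37 (SE 0.19, adjusted p = 0.178) in all libraries and 0.47 (SE 0.16, adjusted p = 0.0247) in the deep ones, where it was called higher, as it was by DESeq2 (adjusted p = 0.0419). Over its 19 alternatives the adjusted p for Ythdf3 ran between 0.0247 and 0.369.

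**Figure D2:**
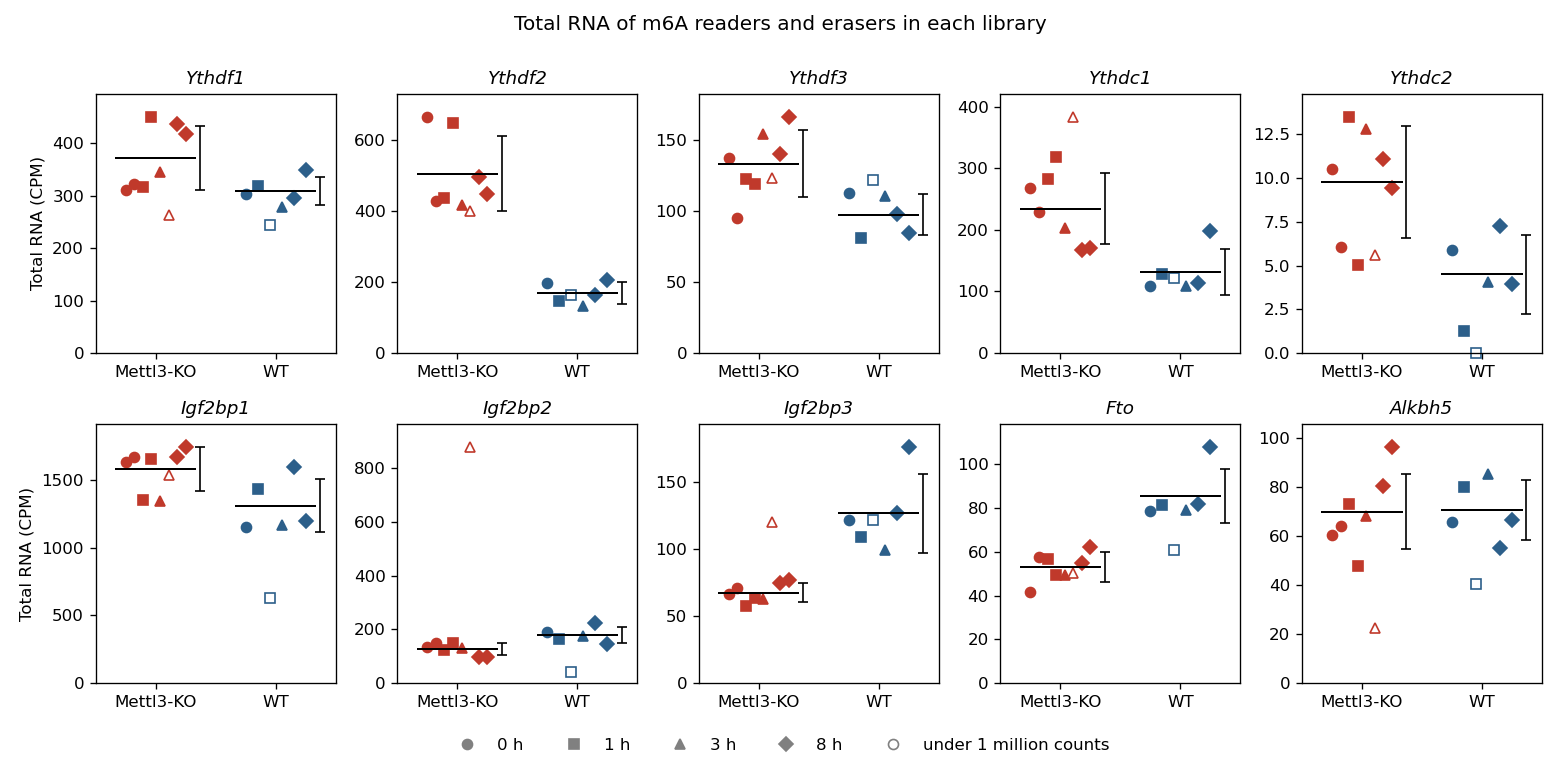
Total RNA in CPM of each of the 10 genes in each library, Mettl3-KO left and WT right, with marker shapes for the chase time and hollow markers for the 2 shallow libraries. Horizontal lines and bars are the mean and SD over the deep libraries (n = 7 and 5). Ythdf2 separates the genotypes in all libraries, Igf2bp3 and Fto in the deep ones, and the hollow triangle at 878 CPM is the shallow Mettl3-KO library for Igf2bp2.

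Ythdc1 (chr5:86803980-86836659) encodes the nuclear reader that acts in splicing, export and chromatin regulation. At 0 h it had 268 and 229 CPM in Mettl3-KO, against 109 CPM in WT. At 1 h it had 282 and 319 CPM in Mettl3-KO, against 129 and 122 CPM in WT. The genotypes were well apart at both times. At 3 h it had 203 and 383 CPM in Mettl3-KO and 109 CPM in WT, the 383 being the shallow library. At 8 h it had 168 and 171 CPM in Mettl3-KO and 114 and 198 CPM in WT, so the groups overlapped there through WT replicate 2. The fitted fold was 1.85 (log2 0.89, SE 0.26, adjusted p = 0.0233). The call was lost on leaving out WT 0 h replicate 1 (log2 0.80, adjusted p = 0.0828), WT 1 h replicate 1 (0.86, adjusted p = 0.0562), Mettl3-KO 1 h replicate 2 (0.82, adjusted p = 0.0541) or WT 3 h replicate 1 (0.75, adjusted p = 0.0899), and the adjusted p was as low as 0.00567 in other alternatives. Its counts cannot be assigned to Ythdc1 alone: the entry Gm43055 held 39677 counts over all libraries, against 39661 for Ythdc1, and was equal to it in 10 of 14 libraries.

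Ythdc2 (chr18:44827730-44889720) encodes a helicase with a YTH domain that is needed for meiosis in mouse germ cells. It was the gene with the fewest counts, between 0 and 307 per library. It had 5.01 to 13.5 CPM (median 9.98) in Mettl3-KO and 0 to 7.28 CPM (median 4.02) in WT. The ranges overlapped, with 4 Mettl3-KO libraries above 10 CPM and none of the WT ones. The fitted fold was 2.27 (log2 1.19, SE 0.40, adjusted p = 0.0477). This call was at the threshold: it was lost on leaving out any 1 library other than Mettl3-KO 0 h replicate 2, Mettl3-KO 3 h replicate 2 or WT 8 h replicate 1, with log2 values between 0.91 and 1.43 and adjusted p between 0.0516 and 0.142 in those 11 fits. It was lost as well with RLE size factors (adjusted p = 0.0515) and with no count filter (adjusted p = 0.118).

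Among the IGF2BP genes, Igf2bp3 changed. Igf2bp3 (chr6:49085218-49215469) is, like its paralogues, an RNA-binding protein gene of embryonic and tumour cells. It had 66.2 and 70.9 CPM at 0 h in Mettl3-KO against 122 CPM in WT, and 57.5 and 63.8 CPM at 1 h in Mettl3-KO against 109 and 122 CPM in WT. At 3 h it had 62.9 and 120.2 CPM in Mettl3-KO against 99.1 CPM in WT, and at 8 h 74.3 and 77.0 CPM in Mettl3-KO against 127 and 176 CPM in WT. In the deep libraries each Mettl3-KO value lay below each WT value, which was so for 10.2% of all genes tested. The exception was the shallow Mettl3-KO library, at 120.2 CPM from 43 counts. The fitted fold was 0.574 (log2 -0.80, SE 0.21, adjusted p = 0.0147), and the call held in all 19 alternatives, with log2 values between -0.95 and -0.72.

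Igf2bp1 (chr11:95957163-96005944) had 1340 to 1739 CPM (median 1642) in Mettl3-KO and 629 to 1591 CPM (median 1182) in WT. The 629 CPM were 31 counts in the shallow WT library, the lowest of its group by a wide gap. The log2 change was 0.37 (SE 0.20, 95% interval -0.03 to 0.77, adjusted p = 0.218), and 0.25 (SE 0.15, adjusted p = 0.208) in the deep libraries, with adjusted p between 0.112 and 0.372 over 19 alternatives. Igf2bp2 (chr16:22059009-22163299) depended on the shallow libraries. In the deep ones it had 96.2 to 151 CPM in Mettl3-KO (median 133), against 145 to 225 CPM in WT (median 177). In the shallow ones it had 878 CPM in Mettl3-KO 3 h replicate 2, from 314 counts, and 40.6 CPM in WT 1 h replicate 2, from 2 counts. The Mettl3-KO value stood far above those of all other Mettl3-KO libraries, and the WT value below those of all other WT libraries. The log2 change was -0.11 (SE 0.45, adjusted p = 0.909) over all libraries and -0.59 (SE 0.17, fold 0.666, adjusted p = 0.00955) over the deep ones. Its adjusted p ran between 0.00955 and 0.995 over the 19 alternatives.

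Fto (chr8:91313367-91668433) encodes a demethylase that acts on m6A and on the related cap-adjacent m6Am. It had 41.8 and 57.6 CPM at 0 h in Mettl3-KO against 78.8 CPM in WT, and 56.6 and 49.2 CPM at 1 h in Mettl3-KO against 81.3 and 60.9 CPM in WT. At 3 h it had 49.2 and 50.3 CPM in Mettl3-KO against 79.0 CPM in WT, and at 8 h 55.1 and 62.2 CPM in Mettl3-KO against 81.7 and 108 CPM in WT. All Mettl3-KO values lay below all deep WT values, and the shallow WT library, with 3 counts, gave the overlap. With deep libraries only in both genotypes, 10.2% of all genes tested lay below WT in this way. The fitted fold was 0.633 (log2 -0.66, SE 0.18, adjusted p = 0.0184). The call was lost on leaving out WT 0 h replicate 1 (log2 -0.66, adjusted p = 0.0567), WT 1 h replicate 1 (-0.61, adjusted p = 0.0658), WT 3 h replicate 1 (-0.65, adjusted p = 0.0587) or Mettl3-KO 8 h replicate 1 (-0.63, adjusted p = 0.0603). The deep libraries alone gave -0.69 (SE 0.15, adjusted p = 0.00139), and over 19 alternatives the adjusted p ran between 3e-05 and 0.0658.

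Alkbh5 (chr11:60537683-60558512), the other m6A demethylase, is needed for spermatogenesis in mice. It had 22.4 to 96.1 CPM (median 65.9) in Mettl3-KO and 40.6 to 85.2 CPM (median 66.2) in WT, and the ranges overlapped almost fully. Its log2 change was -0.12 (SE 0.27, 95% interval -0.65 to 0.42, adjusted p = 0.82). In the deep libraries its mean was 69.9 ± 15.4 CPM in Mettl3-KO (SD, n = 7) and 70.5 ± 12.1 CPM in WT (SD, n = 5). The erasers thus gave 1 lower call and 1 gene that did not pass the test, and the difference between their changes was not tested.

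Over the chase, total RNA of the 10 genes gave no call. The change per hour differed between genotypes for 0 of 10 genes and for 0% of 14641 genes by edgeR, where 728 genes (4.97%) had an unadjusted p under 0.05 and DESeq2 called 85 higher and 116 lower (1.37% together). Of the 10, 1 had an unadjusted p under 0.05 and DESeq2 called 0. That gene was Ythdc1, whose total RNA changed by -0.15 log2 units per hour relative to WT (SE 0.064, unadjusted p = 0.039, adjusted p = 0.989). Its slope was -0.089 per hour in Mettl3-KO (SE 0.045) and 0.057 per hour in WT (SE 0.046). Within each genotype, 0 of the 10 slopes were called as well, and 0 had an unadjusted p under 0.05, against 5.67% of all genes in Mettl3-KO and 3.53% in WT. Without the shallow libraries the difference between genotypes was -0.15 for Ythdc1 (SE 0.045, edgeR adjusted p = 0.111) and 0.10 for Alkbh5 (SE 0.044, adjusted p = 0.239). Neither was called there, where 35 of 14579 genes were called higher and 45 lower.

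Across the 12 deep libraries, the 5 called genes were compared with all other genes by the Pearson correlation of log2(CPM + 0.5). These correlations are descriptions over libraries that share genotype, time and depth. The same libraries went into the calls, so a like call in a gene picked for its correlation is no separate result. Nearest to Ythdf2 were Myo5a (r = 0.979), Acot3 (0.979) and Utp14a (0.977), each also called higher. Nearest to Ythdc1, after Gm43055, were Kif5a (0.962), which was called higher, and Marchf8 (0.959), which was not called (adjusted p = 0.110). Nearest to Ythdc2 were Oaf (0.944), called higher, and Prdx3 (0.921) and Phyhipl (0.913), which were not called (adjusted p = 0.213 and 0.245). Nearest to Igf2bp3 were Cdkn1c (0.977), Sh3d19 (0.973) and Ppp2r5a (0.971), and nearest to Fto were Dnpep (0.975), Ap1m1 (0.973) and 9430015G10Rik (0.967), all called lower. Within the 10, Igf2bp3 and Fto ran together (r = 0.931), and so did Ythdf2 and Ythdc1 (0.846), while Ythdf2 and Fto ran in opposite directions (-0.874).

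Labelled RNA at the end of the pulse was compared by conversion counts, with each library scaled by its total counts. The 0 h value of each genotype comes from a straight line in log2 against hours, fitted over all chase times. It is not taken from the 0 h libraries alone, and without WT 0 h replicate 1 the WT line starts at 1 h. Ythdf2 was the 1 gene of the 10 called higher in Mettl3-KO at 0 h, and 0 were called lower, against 1.35% higher and 6.27% lower of 12678 genes. By unadjusted p under 0.05, 2 of the 10 were higher and 2 lower, against 4.24% higher and 15.9% lower of all genes. DESeq2 called Ythdf2 higher and Fto lower, against 1.51% higher and 7.3% lower of all genes. Ythdf2 had 4320 and 2834 conversion counts at 0 h in the Mettl3-KO libraries, against 1839 in the WT library, which was the deepest of the 3. The fitted log2 change of Ythdf2 at 0 h was 1.63 (SE 0.51, adjusted p = 0.0286), while the median of all genes was -0.35. Leaving out WT 0 h replicate 1, Mettl3-KO 0 h replicate 1, WT 1 h replicate 1, Mettl3-KO 1 h replicate 2, WT 3 h replicate 1, WT 8 h replicate 1 or Mettl3-KO 8 h replicate 2 ended this call, with log2 values between 1.47 and 1.74 and adjusted p between 0.0529 and 0.125. Igf2bp3 (log2 -1.09, SE 0.50, adjusted p = 0.186) and Fto (-1.36, SE 0.50, adjusted p = 0.0801) were called lower without the shallow libraries, at -1.37 (SE 0.42, adjusted p = 0.0253) and -1.37 (SE 0.46, adjusted p = 0.0454). Fto was called lower as well on leaving out Mettl3-KO 3 h replicate 1 (-1.47, adjusted p = 0.0451). Over 22 alternatives the adjusted p reached 0.719 for both genes. The fit without the shallow libraries called 1.57% of 12669 genes higher and 8.55% lower.

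Taken per total count of the same gene, the labelled share of all 10 genes was lower in Mettl3-KO at 0 h. The Ythdf2 share was 38.9% and 40.3% in Mettl3-KO (95% Wilson intervals 38.0 to 39.8% and 39.1 to 41.4%), against 49.6% in WT (48.0 to 51.2%). These intervals, here and below, treat conversion counts as labelled reads among the total counts, which the sources used here do not state. Even so they cover counting error only. The whole libraries were at 26.1% and 26.6% in Mettl3-KO, against 39.4% in WT. When the offset was the total count of the gene itself, the log2 change of Ythdf2 at 0 h, again from the line over all chase times, was -0.054 (SE 0.34, adjusted p = 0.957, the highest of 22 alternatives). The median of all genes was -0.41. Labelled Ythdf2 RNA was thus higher per library count, while its share of Ythdf2 counts was lower in both Mettl3-KO libraries.

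**Figure D3:**
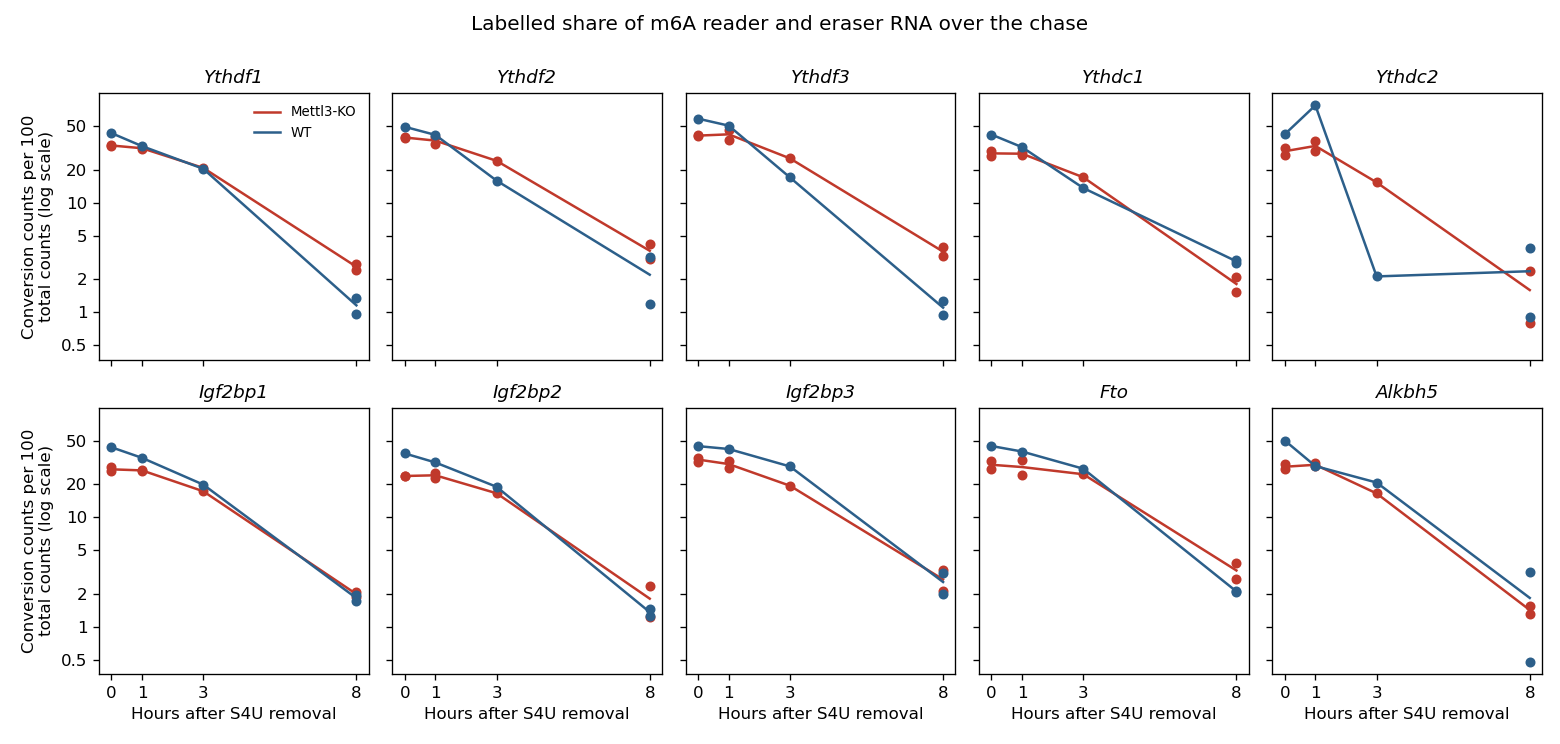
Conversion counts per 100 total counts of each gene (log axis) against hours after S4U removal in the deep libraries, Mettl3-KO red and WT blue, with points for libraries and lines through the means. All 10 genes start lower in Mettl3-KO. For Ythdf1, Ythdf2 and Ythdf3 the Mettl3-KO means are above WT at 3 and 8 h, for Ythdf3 at 25.5 in Mettl3-KO and 17.1 in WT at 3 h. Each genotype has 1 deep library at 3 h, and the share of all genes with this order was not computed. The WT line of Ythdc2 rests on 9 total counts at 1 h.

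The label then left all 10 genes in both genotypes. The loss per hour was called in 10 of 10 in Mettl3-KO and in 10 of 10 in WT, against 88.2% and 91.4% of 12678 genes, so the calls themselves do not set these genes apart. In the deep libraries the share relative to 0 h fell little in the first hour in Mettl3-KO, where it was 91.0 to 112% over the 10 genes (median 98.5%), against 58.4 to 184% in WT (median 83.5%). The 184% belong to Ythdc2, with 7 conversion counts of 9 total counts. At 3 h it was 51.9 to 81.9% in Mettl3-KO (median 61.6%) and 5.02 to 65.2% in WT (median 43.4%), higher in Mettl3-KO for 9 of 10 genes and lower for Igf2bp3. At 8 h it was 4.91 to 10.8% in Mettl3-KO (median 7.68%) and 1.88 to 6.94% in WT (median 4.31%), higher in Mettl3-KO for 8 of 10 genes and lower for Ythdc1 and Ythdc2. The whole libraries held the same order, with 98.5% in Mettl3-KO and 78.1% in WT at 1 h, 70.2% in Mettl3-KO and 50.4% in WT at 3 h, and 18.7% in Mettl3-KO and 10.4% in WT at 8 h. The order is thus not particular to the 10 genes. WT rests on 1 deep library at 0, 1 and 3 h, so these shares are given without a test.

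Half-lives from the fitted loss over 0 to 8 h, which assumes a constant rate, were 1.63 h (Ythdc1) to 2.59 h (Fto) in Mettl3-KO and 1.30 h (Ythdf3) to 2.31 h (Ythdc1) in WT. The half-life of the median gene was 2.12 h in Mettl3-KO and 1.80 h in WT. Ythdc1 was thus the shortest of the 10 in Mettl3-KO and the longest in WT, but its difference in loss rate between genotypes, given below, did not pass the test. Neighbours in either order overlapped in their 95% intervals, and so did the ends. In Mettl3-KO these were 1.27 to 2.28 h for Ythdc1 and 1.82 to 4.46 h for Fto. In WT they were 1.04 to 1.73 h for Ythdf3 and 1.67 to 3.72 h for Ythdc1.

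**Figure D4:**
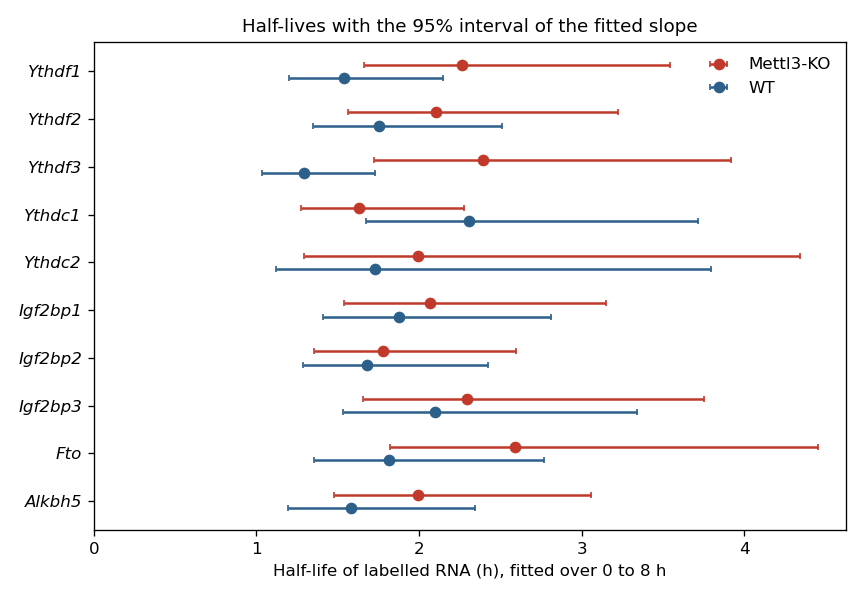
Half-life of labelled RNA in hours for each gene in Mettl3-KO (red, upper) and WT (blue, lower), with bars for the 95% interval of the fitted slope over 0 to 8 h. The points of 9 genes lie to the right in Mettl3-KO, and those of Ythdc1 are the other way round, at 1.63 h in Mettl3-KO and 2.31 h in WT.

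The difference in loss rate between genotypes was tested directly, with a value above 0 for slower loss in Mettl3-KO. It was above 0 for 9 of the 10 genes, against 68.8% of all genes tested, with a median of 0.086 log2 units per hour over the 10 and 0.097 over all genes. By edgeR 0 of the 10 were called, against 2.4% of genes slower and 0.205% faster. By unadjusted p under 0.05, 1 of the 10 passed, against 18.7% of all genes, and DESeq2 called it slower, as it did 5.52% of all genes. That gene was Ythdf3. Its difference was 0.35 (SE 0.12, adjusted p = 0.0623), with a half-life of 2.39 h in Mettl3-KO (95% interval 1.72 to 3.92 h) and 1.30 h in WT (1.04 to 1.73 h). It was called slower in 6 of 23 alternatives: without both shallow libraries (0.34, adjusted p = 0.0189), without WT 1 h replicate 2 alone (0.34, adjusted p = 0.0462) or Mettl3-KO 3 h replicate 2 alone (0.35, adjusted p = 0.0378), with DESeq2 (0.35, adjusted p = 0.00637), and with its own total counts as the offset, in all libraries (0.29, adjusted p = 0.0445) or in the deep ones (0.28, adjusted p = 0.018). The adjusted p ran up to 0.211, and without the shallow libraries 5.05% of genes were called slower and 0.3% faster.

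The Ythdf3 shares behind this were 40.6% and 41.7% at 0 h in Mettl3-KO (95% Wilson intervals 38.6 to 42.6% and 39.3 to 44.2%), against 58.8% in WT (56.7 to 60.9%). At 3 h the deep library of Mettl3-KO was at 25.5% (24.1 to 26.9%), against 17.1% (15.1 to 19.2%) in WT. At 8 h the shares were 3.91% and 3.26% in Mettl3-KO (3.06 to 4.98% and 2.77 to 3.83%), against 0.941% and 1.27% in WT (0.561 to 1.57% and 0.614 to 2.59%). Lower in Mettl3-KO at 0 h and higher at 3 and 8 h, this order was shared by 3 of the 10 genes in the deep libraries. The other 2 were Ythdf2, at 24.2% in Mettl3-KO and 16.0% in WT at 3 h, and Ythdf1, at 20.9% in Mettl3-KO and 20.5% in WT at 3 h. The share of all genes with this order was not computed, and each genotype has 1 deep library at 3 h. Over whole deep libraries the mean share was 26.3% in Mettl3-KO and 39.4% in WT at 0 h. It was 18.5% in Mettl3-KO and 19.9% in WT at 3 h, and 4.93% in Mettl3-KO and 4.12% in WT at 8 h. The WT values of Ythdf3 at 8 h rest on 14 and 7 conversion counts.

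Ythdf1 had a difference of 0.21 (SE 0.11, 95% interval -0.0038 to 0.42, adjusted p = 0.281) and half-lives of 2.26 h in Mettl3-KO and 1.54 h in WT. Without the shallow libraries its difference was 0.23 (SE 0.081, adjusted p = 0.0912). Ythdf2 had 0.094 (SE 0.11, 95% interval -0.11 to 0.30, adjusted p = 0.687), with 2.10 h in Mettl3-KO and 1.76 h in WT. This difference did not pass the test, and the part of decay in the 2.89-fold higher total RNA of Ythdf2 was not tested. Ythdc1 was the 1 gene below 0, at -0.18 (SE 0.11, adjusted p = 0.372), and at -0.19 (SE 0.086, adjusted p = 0.210) without the shallow libraries. Its difference ran between -0.22 and -0.12 on leaving out each library, and between -0.26 and -0.032 over all 23 alternatives. Ythdc1 total RNA itself moved by -0.15 log2 units per hour relative to WT. The 23 alternatives included fits with its own total count as the offset, which scale the label by this total RNA. None of the 23 called the difference, and the value of -0.032 came from a fit other than those leaving out each library. The part of total RNA in this difference was not tested by itself. The Ythdc1 share at 8 h was 1.52% and 2.10% in Mettl3-KO (1.06 to 2.18% and 1.72 to 2.56%). In WT it was 3.00% and 2.85% (2.29 to 3.91% and 2.07 to 3.90%), so both Mettl3-KO values lay below both WT values. Ythdc1 was the 1 gene studied with this order, and 3 had both Mettl3-KO values above both WT values. The share of all genes with either order was not computed. The whole libraries at 8 h had the order of those 3 genes, at 4.90% and 4.97% in Mettl3-KO and 4.52% and 3.72% in WT. Relative to 0 h, the Ythdc1 share in the deep libraries was higher in Mettl3-KO at the earlier times. It was 99.3% in Mettl3-KO and 76.7% in WT at 1 h, and 60.5% in Mettl3-KO and 32.5% in WT at 3 h. The remaining differences were 0.078 (SE 0.19) for Ythdc2, 0.048 (SE 0.11) for Igf2bp1, 0.033 (SE 0.12) for Igf2bp2, 0.041 (SE 0.11) for Igf2bp3, 0.16 (SE 0.12) for Fto and 0.13 (SE 0.13) for Alkbh5, with adjusted p between 0.468 and 0.924.

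The authors' deposited table of half-lives, which names no unit, holds 9 of the 10 genes and not Ythdc2. In it the value of Ythdf3 was 4.85 in Mettl3-KO and 1.37 in WT, that of Ythdf1 4.64 in Mettl3-KO and 1.57 in WT, and that of Igf2bp3 4.59 in Mettl3-KO and 2.08 in WT. Ythdf2 had 3.30 in Mettl3-KO and 1.66 in WT, and Ythdc1 2.79 in Mettl3-KO and 2.36 in WT, both from the authors' deposited table. The authors' deposited table gives a longer half-life in Mettl3-KO for 9 of 9 of these genes, and for 83.4% of its 6985 genes. In that table Ythdc1 has the smallest difference of the 9, at 0.43 above WT, while the fit to the counts put it below WT. That fit gave lower numbers in Mettl3-KO, at 2.39 h for Ythdf3, 2.26 h for Ythdf1 and 2.30 h for Igf2bp3. In WT it was near the deposited values, at 1.30 h, 1.54 h and 2.10 h in the same order. On the authors' normalized values, limma gave a median difference in loss rate of 0.19 over all genes, against 0.097 in the fit to the counts. The reason for this gap was not tested.

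Calls in total RNA among genes that act with these readers and erasers are given beside the 12.1% higher and 9.99% lower among all genes. In a list of 11 writer complex genes and other RNA m6A methyltransferases, 3 were higher and 1 was lower in total RNA (median log2 0.38). The higher ones were Rbm15 (1.38, SE 0.27, adjusted p = 0.00215), Wtap (0.89, SE 0.30, adjusted p = 0.0443) and Virma (0.86, SE 0.24, adjusted p = 0.0202), which are regulatory subunits of the complex, and the lower one was Mettl3. Mettl14, the partner of METTL3 in the catalytic core, was at -0.045 (SE 0.38, adjusted p = 0.957). Of 15 genes whose products work with YTH readers, 0 were higher and 1 was lower (median 0.010): Cnot1, the scaffold of the deadenylase that YTHDF2 recruits, at -0.74 (SE 0.20, adjusted p = 0.0157). Of 12 other genes proposed to encode readers, 0 were higher and Snd1 was lower (-1.08, SE 0.20, adjusted p = 0.0018; median -0.25). Of 8 genes of the LIN28 and let-7 axis, let-7 being a known regulator of IGF2BP mRNAs, 0 were higher and Hmga2, a let-7 target, was lower at -3.16 (SE 0.35, adjusted p = 4.73e-05; median 0.20). The single lower call in each of the 4 lists was near the share of all genes. In labelled RNA at 0 h, 0 genes of the 4 lists were higher, against 1.35% of all genes, and 5 were lower, against 6.27%. The lower ones were Mettl3 among the writers, Cnot3 (-1.70, SE 0.49, adjusted p = 0.0139), a subunit of the CCR4-NOT complex, among the partners, Snd1 (-1.52, SE 0.48, adjusted p = 0.0316) and Prrc2a (-1.58, SE 0.51, adjusted p = 0.0389) among the proposed readers, and Hmga2 (-4.44, SE 0.52, adjusted p = 2.6e-11). In the difference in loss rate, 0 genes were called in each of the 4 lists, against 2.4% of all genes slower and 0.205% faster.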

How the data were processed

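SLAM-seq libraries of paused E14 cells were used as raw total counts and raw conversion counts per gene symbol, as the authors deposited them. Reads had been processed against mm10, and the tools named are Trim Galore 0.4.0, featureCounts, Subread 1.5.0 and edgeR 3.32.1, per the submitters' processing notes; the sources used here name neither the aligner nor the conversion caller. The authors' deposited log2 normalized values served for 1 alternative, and their deposited half-lives and fit scores (a correlation per gene) are quoted as theirs, with no unit given. Of all counts, 0.00707 to 0.0312% per library belonged to an entry with no gene name and were left out.

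Tests were run with edgeR 4.0.16 in R 4.3.3 (quasi-likelihood, robust, TMM), with Benjamini-Hochberg adjustment over all genes tested and a threshold of 0.05. Total RNA was fitted for genes with at least 10 counts in 6 libraries, with library sizes taken over those genes. Conversion counts were fitted for genes with at least 10 in 3 libraries, on TMM-scaled total counts, with genotype, hours and their interaction as terms. CPM use full totals times TMM factors, and an SE is the log2 value over the root of F. Conversions exceeded totals in 152 genes, 0 of them among the 10. Alternatives were DESeq2 1.42.0, limma 3.58.1, RLE size factors, other filters and offsets, the replicate number as a block, and each library left out. Gene positions come from a RefSeq table of GRCm38.p6 and span whole genes, not the counted ends. The genes named are the 10, Mettl3, members of the 4 lists called in total RNA or in the difference in loss rate, and for each of the 10 called in total RNA the 3 most correlated genes; Mettl14, Cnot3, Prrc2a, and Elf5 and Postn of the marker lists were added after their values were seen. The 10 genes, the lists and the tests were chosen with earlier results of these data known. The fits were tested on simulated data.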

Additional observations from a re-analysis of the deposited data

Results flagged for a closer look

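Of 20 sets of libraries, 1 per gene and genotype, 5 held a library far from the others in total RNA, where chance gives about 1 in 20. The lowest or highest library was set against its group by Dixon's criterion. Igf2bp2 was at 878 CPM in Mettl3-KO 3 h replicate 2 (314 counts), against 96.2 to 151 CPM in the other Mettl3-KO libraries. Igf2bp3 was at 120.2 CPM in the same library (43 counts), against 57.5 to 77.0 CPM in the others. In WT 1 h replicate 2, Igf2bp1 was at 629 CPM (31 counts), against 1155 to 1591 CPM in the other WT libraries, and Igf2bp2 was at 40.6 CPM (2 counts), against 145 to 225 CPM. Ythdc1 was at 198 CPM in WT 8 h replicate 2 (1299 counts), against 109 to 129 CPM in the other WT libraries. Of these 5 values, 4 are from the shallow libraries.

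In Mettl3-KO 3 h replicate 2, the TMM factor was 0.594, against 0.993 to 1.09 in the deep libraries. The labelled share of Igf2bp2 there was 2.55%, against 16.6% in Mettl3-KO 3 h replicate 1. The part of this library's composition in the Igf2bp2 and Igf2bp3 values was not tested.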

How the results depend on the processing

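Counts of the 10 genes called in total RNA were 3 higher and 2 lower, and 1 to 3 higher and 1 to 2 lower on leaving out each library. At 0 h the labelled RNA gave 1 higher and 0 lower; leaving out each library gave 0 to 1 for either, TMM on the conversion counts gave 2 higher, the own total count as offset 0 higher with or without the shallow libraries, leaving out the shallow libraries 2 lower and DESeq2 1 lower. Loss was called in 10 genes in each genotype, but in 1 with TMM on the conversion counts, which takes out loss common to the library by construction. The difference in loss rate gave 0 slower, 0 to 1 on leaving out each library, and 1 without the shallow libraries, with DESeq2, and with the own total count as offset in all or in the deep libraries. The last setting was chosen after seeing the data.

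The values that turned sign follow, and none was called after turning. In total RNA, on leaving out each library, Igf2bp2 ran between -0.51 and 0.073 and Alkbh5 between -0.23 and 0.096. For the change per hour these ranges were -0.20 to 0.032 for Ythdc2, -0.17 to 0.034 for Igf2bp2, -0.048 to 0.012 for Igf2bp3 and -0.041 to 0.0094 for Fto. For label at 0 h they were -0.31 to 0.099 for Ythdf1 and -0.29 to 0.34 for Igf2bp1. For the difference in loss rate they were -0.072 to 0.22 for Ythdc2, -0.022 to 0.12 for Igf2bp2, -0.032 to 0.11 for Igf2bp3 and -0.020 to 0.30 for Alkbh5. With TMM on the conversion counts, label at 0 h was 0.29 for Ythdf1 and 0.18 for Ythdf3, loss was 0.011 for Ythdf3 and 0.040 for Fto in Mettl3-KO and 0.083 for Ythdc1 and 0.038 for Igf2bp3 in WT, and the difference was -0.036 for Igf2bp1, -0.054 for Igf2bp2 and -0.048 for Igf2bp3. With the own total count as offset, label at 0 h was -0.054 for Ythdf2, which is called as reported, -0.22 for Ythdc1, -0.39 for Ythdc2 and -0.41 for Igf2bp1. In the deep libraries alone it was -0.21, -0.22, -0.39 and -0.62 in the same order. Without the shallow libraries Igf2bp1 was at -0.33. Apart from the offset and TMM settings named, the cause was not tested. Replicate numbers did not pair the libraries: the correlation of deviations between genotypes was 0.020 at 1 h and -0.0065 at 8 h, and across times it ran between -0.069 and 0.274 (Mettl3-KO 3 h with WT 1 h), so that not every value was over 0.1. With the replicate number as a block, counts of calls in total RNA stayed at 3 and 2, and Ythdf1 at 0 h was 0.037. Depth limits Ythdc2 most, and WT has 1 library at 0 h and at 3 h.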
